A study of Mus musculus with 8 samples.

Results

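The genes described here make, activate, move and break down sialic acid. They were chosen by name from that pathway: Gne, Nans, Nanp and Cmas (synthesis and activation), Slc35a1 and Slc17a5 (transport), and Npl, Neu1 and Neu3 (breakdown). All 9 are present in the deposited table of 23420 genes, and 8 passed the filter on low counts, as did 12442 genes in all. Nanp did not pass. The 9 genes together took between 0.0334% and 0.0650% of the reads of a library.

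RNA was sequenced from mouse dendritic cells, the antigen-presenting cells that carry antigen from tissue to lymph nodes. Cells came from Gata1 knock-out mice (KO) or from mice with wild-type Gata1 (WT), and were kept at steady state or stimulated with LPS, a cell wall component of bacteria that activates dendritic cells. The design has 4 groups of 2 libraries, described by the submitters as biological replicates. The labels say nothing of how Gata1 was deleted, how old the mice were, how the dendritic cells were obtained, or which LPS dose and time were used. Nor do they say that replicates were separate animals. The p-values therefore measure the spread between these libraries.

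Sialic acids are acidic sugars that cap the glycans of cell surface proteins and lipids, and polysialic acid, named in the series title, is a long chain of them. In the cytosol, UDP-N-acetylglucosamine is turned into free sialic acid by Gne, Nans and Nanp in turn. Cmas then joins the sugar to CMP in the nucleus, and Slc35a1 carries CMP-sialic acid into the Golgi, where sialyltransferases use it. Sialidases such as Neu1 and Neu3 remove sialic acid from glycans, Slc17a5 lets the freed sugar out of the lysosome, and Npl splits it in the cytosol.

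Total counts ran from 8005151 to 15495249 per library. Levels are in CPM, counts per 1000000 after scaling of library sizes. Within a group, log2 CPM had a median SD of 0.108 (KO) and 0.188 (WT) in steady-state cells and of 0.331 (KO) and 0.436 (WT) in LPS cells, so LPS libraries of a group lay further apart. Gata1 had 0 reads in all 4 KO libraries, 1 and 10 reads in the WT steady-state libraries, and 0 and 1 with LPS. With 0 reads over both KO steady-state libraries, a level of up to 0.134 per 1000000 total counts remains possible, counting error only. Most WT Gata1 reads thus came from WT steady-state library 2, which also held the highest summed levels of neutrophil markers (249.9 CPM, against 6.29 to 38.9 in the other 7 libraries) and of basophil and mast cell markers (89.4 against 0 to 2.70). The 10 dendritic cell markers checked all had reads in each group except Cd209a, which had 0 in both KO LPS libraries.

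Values below are CPM per library, group means ± SD (n = 2), and log2 differences ± SE with the edgeR quasi-likelihood test and Benjamini-Hochberg adjustment over all 12442 genes. A gene was called at an adjusted p under 0.05. In bulk RNA, fewer cells of a type and less RNA per cell cannot be told apart.

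The only members that edgeR called were Npl, of the breakdown arm, and Slc17a5, which exports sialic acid from lysosomes. Their calls depended on which libraries entered the fit. Neu1 and Neu3, also of the breakdown arm, were called by edgeR in none of the 5 comparisons. Npl, the sialic acid lyase, was 4.49-fold higher in KO than in WT cells with LPS, and was the 1 member of 8 called in that comparison, where 0.772% of all genes tested were called. In WT cells LPS lowered Npl 2.82-fold and the lysosomal exporter Slc17a5 2.29-fold, the 2 members called there, against 6.49% of all genes tested. EdgeR called 0 members between genotypes at steady state (0% of all genes), 0 between LPS and steady state in KO cells (11.8% of all genes) and 0 in the test of whether the LPS response differed between genotypes (0% of all genes). Each of these had 1 member at an unadjusted p under 0.05, against 327, 4079 and 797 of all 12442 genes in turn. DESeq2 called 1 member, Neu1, in KO cells (2846 of all genes) and 0 in the others (27 and 113 of all genes). The genes of synthesis and activation, Gne, Nans and Cmas, were called in none of the 5 comparisons.

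**Figure D1:**
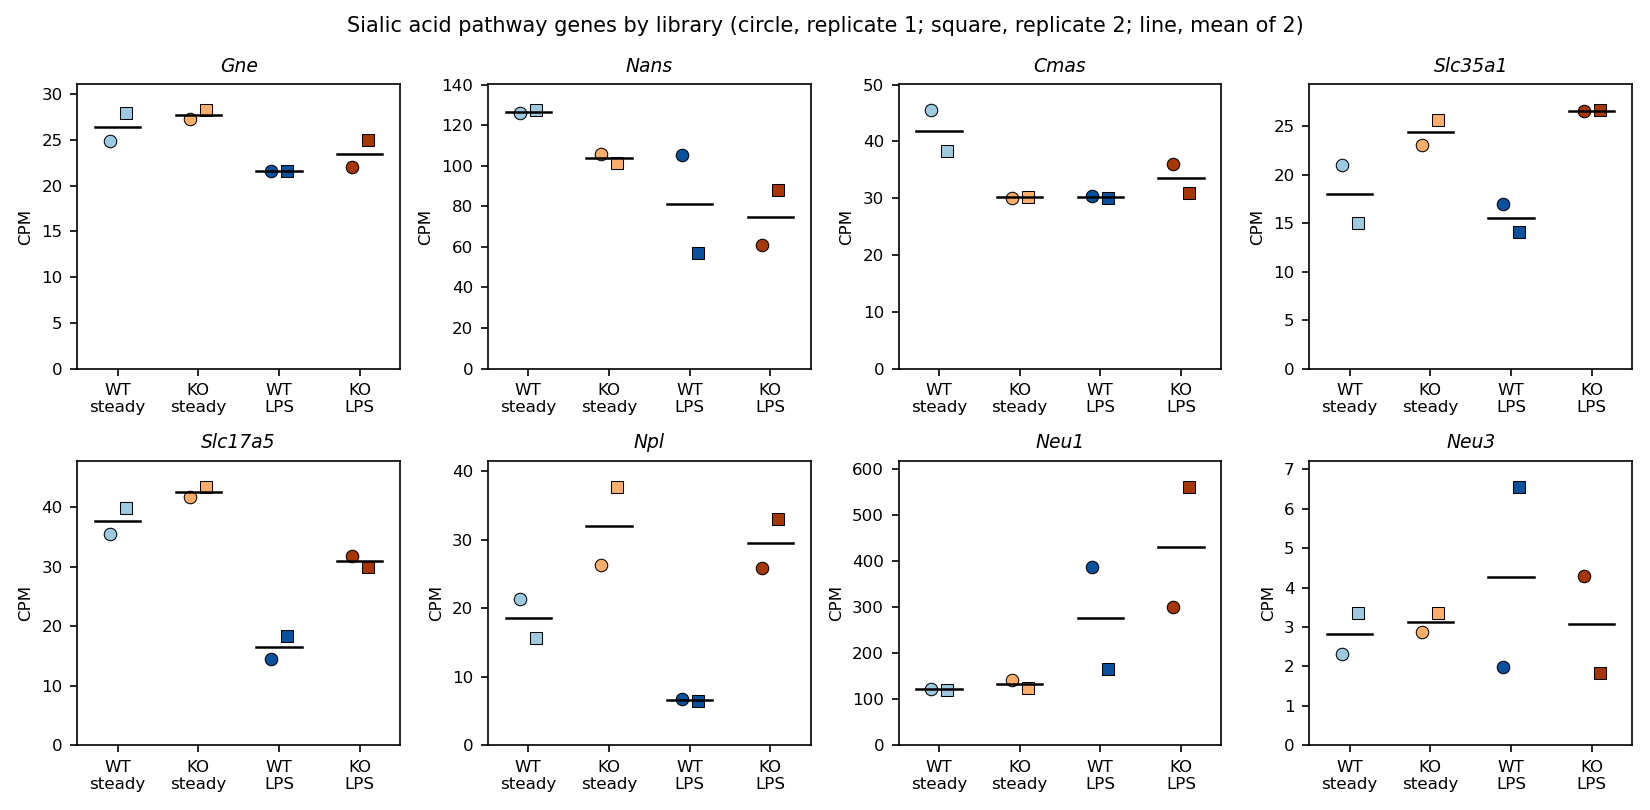
CPM of the 8 tested genes (vertical axes, linear, from 0) in WT and KO cells at steady state and with LPS. Circles are replicate 1, squares replicate 2, and lines the mean of both. Both WT LPS libraries lie below the other 6 libraries for Npl and Slc17a5, and the libraries of each LPS group lie far apart for Neu1, Neu3 and Nans.

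Levels were compared between genes only per length, as CPM per kilobase of annotated exon. In WT cells at steady state Nans was the highest at 58.2 ± 0.456 and Neu1 the next at 48.8 ± 0.594, followed by Cmas at 23.8 ± 2.86. Slc17a5 (11.7 ± 0.959), Npl (10.7 ± 2.30) and Slc35a1 (8.82 ± 2.06) came next, and each of these overlapped its neighbour in the order. Gne, the first enzyme of the pathway, was at 4.56 ± 0.371 and Neu3 at 0.848 ± 0.218, with no overlap between them or with their neighbours.

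The order per length moved with the group. Neu1 stood above Nans in KO steady-state cells (53.9 ± 4.83 against 47.6 ± 1.31 CPM per kilobase) and in both LPS groups, without overlap. Npl was at rank 3 in KO steady-state cells at 18.5 ± 4.63, overlapping Cmas at 17.1 ± 0.0423. In WT LPS cells Npl was at rank 6 at 3.78 ± 0.151, overlapping Gne at 3.72 ± 0.0121. These levels are a description, with no test between genes.

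**Figure D2:**
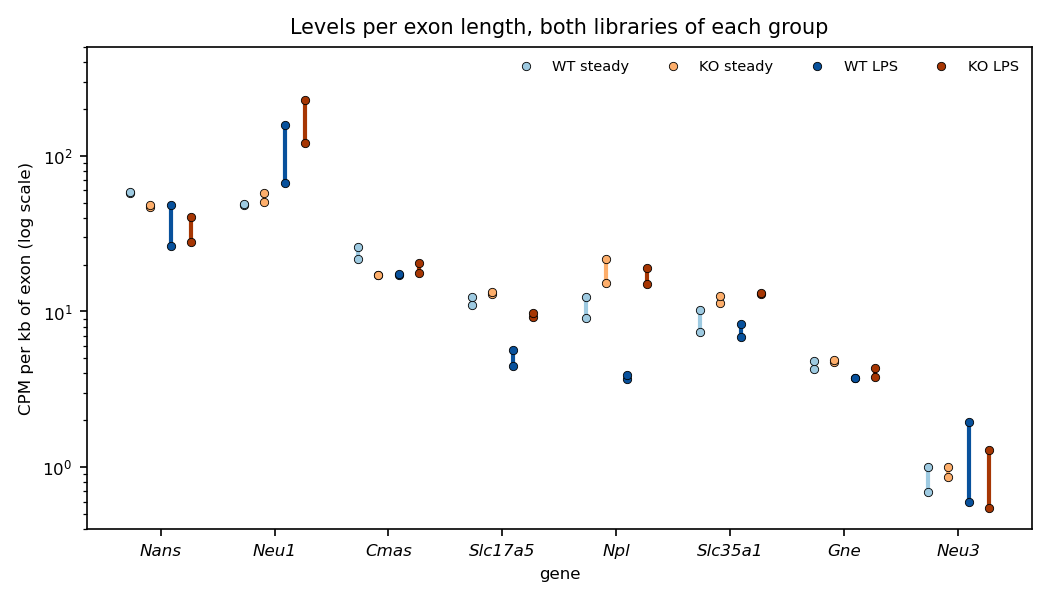
CPM per kilobase of exon (vertical axis, log scale) of the 8 tested genes, ordered by their level in WT steady-state cells. Dots are the 2 libraries of a group, and a line joins them. Nans and Neu1 lie highest and Neu3 lowest in every group, and Npl lies lower in WT LPS cells (3.67 and 3.89) than in the other groups.

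Gne (mm10 chromosome 4, 44034075 to 44084177, minus strand) encodes the bifunctional epimerase and kinase that starts the pathway and is held back by CMP-sialic acid. It was at 24.9 and 27.96 CPM in the WT steady-state libraries, 27.3 and 28.2 in KO, 21.6 and 21.7 in WT with LPS, and 22.0 and 25.0 in KO with LPS. Both LPS groups lay below their own steady-state group, and the genotypes overlapped at steady state. The log2 difference of LPS against steady state was -0.29 ± 0.22 in WT and -0.24 ± 0.22 in KO (edgeR adjusted p = 0.431 and 0.473). Between genotypes it was 0.07 ± 0.22 at steady state, with a 95% interval from -0.45 to 0.59, and 0.12 ± 0.23 with LPS, with an interval from -0.41 to 0.65.

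Nans (chromosome 4, 46489248 to 46503632, plus strand) encodes the synthase that condenses the phosphorylated sugar with phosphoenolpyruvate. It was at 126 and 127 CPM in WT and 106 and 102 in KO cells at steady state. With LPS it was at 106 and 57.2 in WT and 61.1 and 88.3 in KO. The steady-state genotypes did not overlap, with KO lower, but the log2 difference of -0.29 ± 0.33 was not called (edgeR adjusted p = 1). With LPS the genotypes overlapped, and the difference of -0.12 ± 0.33 (edgeR adjusted p = 0.905) turned to 0.38 without WT LPS replicate 1 and 0.12 without KO LPS replicate 1. LPS differed from steady state by -0.64 ± 0.33 in WT and -0.47 ± 0.33 in KO (edgeR adjusted p = 0.258 and 0.345).

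Nanp (chromosome 2, 151029685 to 151039398, minus strand) encodes the phosphatase that removes the phosphate of sialic acid. It had 2 reads in WT LPS replicate 2 and 0 in the other 7 libraries. A count of 0 allows up to 0.239 to 0.375 per 1000000 total counts in those libraries, counting error only, so Nanp was not detectable there at this depth and no difference between groups could be tested. Of its 1394 annotated exon bases, 146 are shared with Ninl exons, or 10.5%. The sources used here do not say how reads on shared bases were counted.

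Cmas (chromosome 6, 142756686 to 142775714, plus strand) encodes the enzyme that activates sialic acid with CMP. It was at 45.5 and 38.4 CPM in WT steady-state cells and 30.1 and 30.2 in KO. With LPS it was at 30.4 and 30.1 in WT and 36.0 and 30.9 in KO. WT steady-state cells held the highest level and no other library reached their range. The KO difference at steady state was -0.48 ± 0.22 (edgeR adjusted p = 1, unadjusted p = 0.0651), with a 95% interval from -0.99 to 0.04. LPS libraries lay below steady state in WT (-0.47 ± 0.22, edgeR adjusted p = 0.218) and above it in KO (0.15 ± 0.22, edgeR adjusted p = 0.650). The difference between these responses was 0.62 ± 0.31 and was not called (edgeR adjusted p = 0.839, unadjusted p = 0.0833).

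Slc35a1 (chromosome 4, 34663257 to 34687438, minus strand) encodes the transporter that brings CMP-sialic acid into the Golgi. At steady state it was at 21.0 and 15.02 CPM in WT and 23.1 and 25.7 in KO. With LPS it was at 16.9 and 14.0 in WT and 26.5 and 26.6 in KO. KO libraries were thus above WT libraries at both treatments, without overlap. The difference was 0.44 ± 0.27 at steady state (edgeR adjusted p = 1) and 0.78 ± 0.27 with LPS (edgeR adjusted p = 0.207, unadjusted p = 0.0220). The LPS difference did not pass the adjusted threshold in any alternative run (adjusted p from 0.122 to 0.630).

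Slc17a5 (chromosome 9, 78536488 to 78588041, minus strand) encodes sialin, which exports free sialic acid from the lysosome. At steady state it was at 35.5 and 39.9 CPM in WT and 41.8 and 43.5 in KO. With LPS it was at 14.4 and 18.4 in WT and 31.9 and 30.01 in KO. The WT LPS libraries were the lowest of all 8, and KO LPS libraries lay between them and the steady-state libraries. LPS lowered Slc17a5 in WT cells by a log2 difference of -1.196 ± 0.23 (95% interval from -1.74 to -0.65, edgeR adjusted p = 0.0292). In KO cells the difference was -0.46 ± 0.23 (interval from -1.001 to 0.08, edgeR adjusted p = 0.203).

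The genotype difference of Slc17a5 with LPS was 0.91 ± 0.23 on the log2 scale and was not called (edgeR adjusted p = 0.113, unadjusted p = 0.00533). DESeq2 called it (adjusted p = 0.0201), and over the alternatives its adjusted p ran from 0.0201 to 0.545. The test of different LPS responses gave 0.73 ± 0.33 (edgeR adjusted p = 0.803, unadjusted p = 0.0571). The fall in WT was also called by DESeq2 (adjusted p = 0.000353), and over the alternatives its adjusted p ran from 0.000353 to 0.178. The call was lost with edgeR on the 4 WT libraries alone, under the replicate block, and without either WT steady-state library, either KO steady-state library or WT LPS replicate 1 (adjusted p = 0.0633 to 0.178).

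Npl (chromosome 1, 153503015 to 153550045, minus strand) encodes the lyase that splits free sialic acid into N-acetylmannosamine and pyruvate. At steady state it was at 21.3 and 15.7 CPM in WT and 26.4 and 37.7 in KO. With LPS it was at 6.74 and 6.37 in WT, from 51 and 103 reads, and 25.9 and 33.1 in KO, from 229 and 216 reads. The WT LPS libraries were the lowest of all 8, and KO lay above WT at both treatments without overlap. The difference with LPS was 2.17 ± 0.32 on the log2 scale (95% interval from 1.43 to 2.91, edgeR adjusted p = 0.0411). At steady state it was 0.79 ± 0.30 (interval from 0.09 to 1.49, unadjusted p = 0.0318, edgeR adjusted p = 1), and 0.50 to 1.03 with 1 library left out.

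LPS lowered Npl in WT cells by a log2 difference of -1.496 ± 0.31 (95% interval from -2.23 to -0.77, edgeR adjusted p = 0.0359). In KO cells the LPS and steady-state libraries overlapped, with a difference of -0.12 ± 0.30 (interval from -0.82 to 0.58, edgeR adjusted p = 0.796). The difference between the 2 responses was 1.37 ± 0.43, with an unadjusted p of 0.0139 and an edgeR adjusted p of 0.631, so a different LPS response was not shown. The LPS comparison in WT and the genotype comparison with LPS share the WT LPS libraries and are not independent.

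The Npl calls depended on which libraries entered the fit. The genotype difference with LPS was called by DESeq2 (adjusted p = 1.8e-06) but not by edgeR on the 4 LPS libraries alone (adjusted p = 0.342) or under the replicate block (0.0933). Of the 8 fits that left out 1 library, it was called in 1, the fit lacking WT LPS replicate 1 (0.0272), and in the other 7 the adjusted p was 0.0540 to 0.153, with a log2 difference from 1.96 to 2.33. The fall in WT was called by DESeq2 (0.00141) and without WT LPS replicate 2 or either KO LPS library (0.0337 to 0.0489). It was not called without the other 5 libraries (0.0679 to 0.231), on the 4 WT libraries alone (0.127) or under the replicate block (0.0738).

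Neu1 (chromosome 17, 34931253 to 34935953, plus strand) encodes the lysosomal sialidase, which is active in a complex with the protective protein cathepsin A. At steady state it was at 122 and 120 CPM in WT and 142 and 125 in KO. With LPS it was at 388 and 166 in WT and 301 and 561 in KO. All 4 LPS libraries lay above all 4 steady-state libraries, and the genotypes overlapped with LPS. The LPS difference was 1.197 ± 0.46 in WT (edgeR adjusted p = 0.152) and 1.69 ± 0.46 in KO (edgeR adjusted p = 0.0562), and neither passed the threshold.

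The WT value of Neu1 moved from 0.47 without WT LPS replicate 1 to 1.68 without WT LPS replicate 2, where it was called (edgeR adjusted p = 0.0205). DESeq2 called the KO value (adjusted p = 0.00429), as did edgeR with no filter (0.0154) or on the 4 KO libraries alone (0.0363), and without either WT LPS library (0.0121 and 0.0122). Over all alternatives its adjusted p ran from 0.00429 to 0.280. Between genotypes the Neu1 difference was 0.14 ± 0.45 at steady state and 0.64 ± 0.45 with LPS (edgeR adjusted p = 1 and 0.541). Ctsa, which encodes cathepsin A and is named after its values were seen, was at 809 and 311 CPM in WT and 882 and 1544 in KO with LPS, and was called in none of the 5 comparisons. In both groups the LPS library with more Neu1 also held more Ctsa. This is not particular to these genes: Slc35b1 split the same way, at 115 and 39.7 CPM in WT and 54.9 and 121 in KO with LPS. Over all tested genes, deviations from the group mean correlated at -0.629 between WT and KO LPS libraries of equal number.

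Neu3 (chromosome 7, 99811439 to 99828417, minus strand) encodes the plasma membrane sialidase, which acts on gangliosides. It was the lowest of the tested members, with 12 to 106 reads per library. It was at 2.32 and 3.35 CPM in WT and 2.87 and 3.36 in KO at steady state, and at 1.98 and 6.56 in WT and 4.29 and 1.84 in KO with LPS. All groups compared overlapped. The genotype difference with LPS of -0.49 ± 0.67 (95% interval from -2.05 to 1.08, edgeR adjusted p = 0.781) turned to 0.65 without WT LPS replicate 2.

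**Figure D3:**
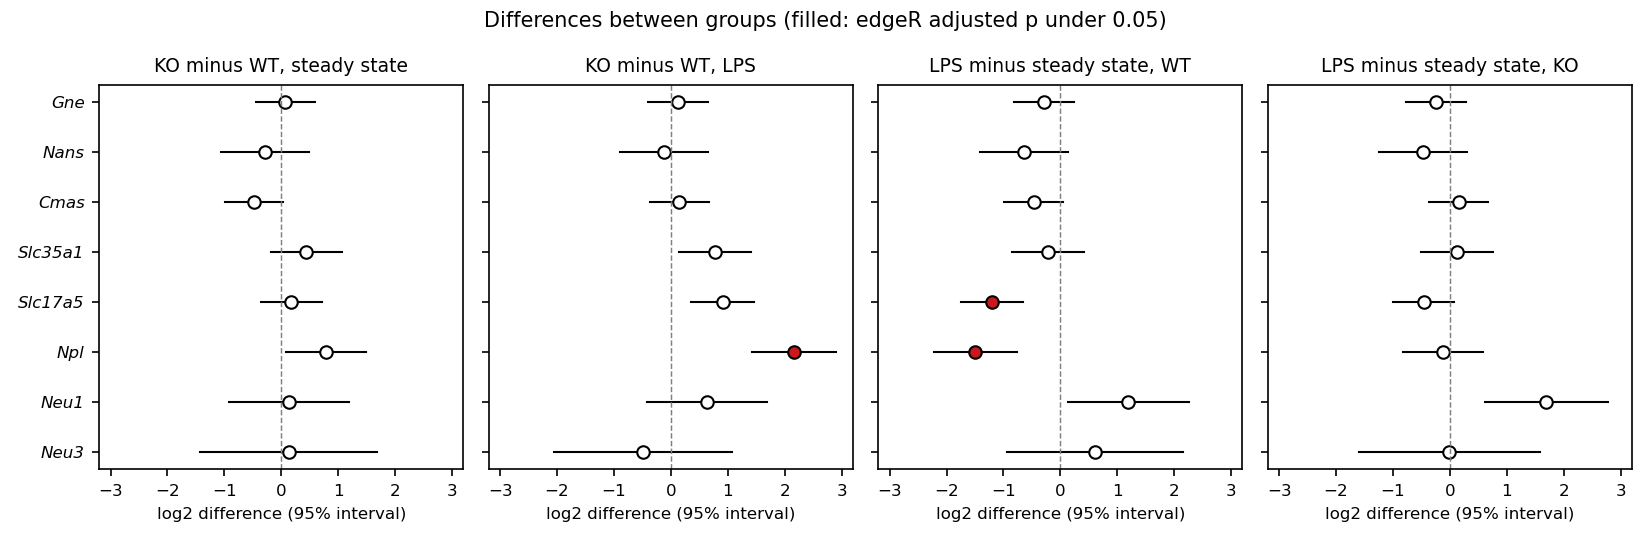
Log2 differences (horizontal axes) of the 8 tested genes in the 4 pairwise comparisons, with 95% intervals as bars. Filled circles mark an edgeR adjusted p under 0.05, which Npl reached in KO against WT with LPS (2.17), and Npl (-1.496) and Slc17a5 (-1.196) reached in WT with LPS.

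By direction, the 1 member called between genotypes with LPS was higher in KO (0.281% of all genes were called higher and 0.49% lower). The 2 members called in WT cells were lower with LPS (3.49% of all genes were called lower and 3% higher). In KO cells 0 of 8 members were called in either direction by edgeR, where 5.3% of all genes were called higher and 6.46% lower with LPS.

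Between genotypes at steady state, KO and WT libraries did not overlap for 6 of 8 members (45.5% of all genes), with 4 higher in KO (22.1%) and 2 lower (23.4%). With LPS they did not overlap for 5 of 8 (36.1%), with 5 higher in KO (18%) and 0 lower (18.1%). Steady-state and LPS libraries of WT cells did not overlap for 6 of 8 members (56.6%), with 1 higher (27.5%) and 5 lower (29.1%). Those of KO cells did not overlap for 6 of 8 (72.6%), with 3 higher (34.4%) and 3 lower (38.2%). The median log2 difference of the 8 members was 0.14 at steady state and 0.39 with LPS between genotypes, where the median of all genes was -0.01 in each. For LPS against steady state it was -0.38 in WT and -0.07 in KO, against 0.00 and -0.02 over all genes.

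Markers of macrophages were set beside Npl. All 11 tested macrophage markers had a positive difference between KO and WT with LPS, and 1, Apoe, was called. Their summed level was 16354 to 21836 CPM in KO and 3917 to 5783 in WT LPS libraries, against 20847 to 26305 in WT and 25051 to 28710 in KO at steady state. No macrophage marker was at 0 in any group. In WT cells 6 of the 11 were called lower with LPS and 0 higher, and in KO cells 5 were lower and 0 higher, against 6.49% and 11.8% of all genes called in either direction. The markers did not all point the same way: 3 of the 11 (Emr1, Fcgr1 and Cd68, named after their values were seen) had positive LPS differences in both genotypes, none of them called by edgeR. Lyz2 made up much of the sums, at 13020 ± 4270 CPM in KO and 2156 ± 141 in WT LPS libraries, so they do not stand for each marker. The complement gene C1qa fell with LPS in KO cells too, from 383 ± 78.2 to 34.7 ± 19.8 CPM (edgeR adjusted p = 0.0134), and the mannose receptor gene Mrc1 from 208 ± 32.3 to 3.09 ± 3.94 (edgeR adjusted p = 0.0171). Npl was at 32.0 ± 8.03 and 29.5 ± 5.09 CPM in the same groups. Csf1r and Lyz2, also named after their values were seen, changed less with LPS in KO cells. Their log2 differences there were -0.18 ± 0.35 and -0.27 ± 0.43 (edgeR adjusted p = 0.743 and 0.681). In WT cells they were -0.93 ± 0.36 and -2.84 ± 0.46 (edgeR adjusted p = 0.154 and 0.0165). Between genotypes with LPS they were 1.25 ± 0.36 and 2.59 ± 0.45 (edgeR adjusted p = 0.141 and 0.0583). The summed dendritic cell markers went the other way between genotypes with LPS, at 4529 to 9783 CPM in KO and 10287 to 16228 in WT. All 10 had a negative difference there, and 2 (Ccr7 and Cd86) were called lower. For LPS in KO cells, edgeR called 6 of the 10 lower (Ccr7, Ciita, Zbtb46, Flt3, Itgax and Cd209a) and 0 higher, against 11.8% of all genes. In WT cells it called 2 lower (Ccr7 and Cd209a) and 1 higher (Cd86), against 6.49%. Cd74, H2-Aa and H2-Ab1 made up most of the dendritic cell sums. EdgeR called none of these 3 between genotypes with LPS (adjusted p = 0.560, 0.446 and 0.910). The part of these cells in the Npl result was not tested.

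**Figure D4:**
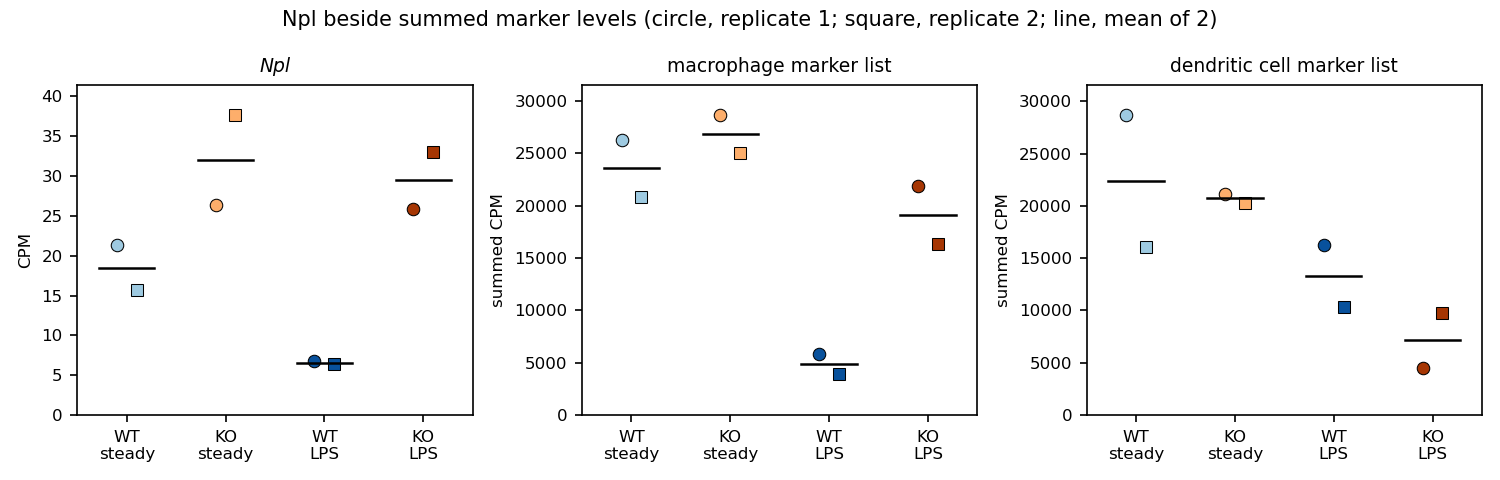
Npl CPM and the summed CPM of 11 macrophage and 10 dendritic cell markers (vertical axes, linear, from 0) in each library. Circles are replicate 1, squares replicate 2, and lines the mean of both. Npl and the macrophage sum are both lowest in the WT LPS libraries, and the dendritic cell sum is lowest in the KO LPS libraries.

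Among themselves the members varied in several ways over the 8 libraries, which share 4 group means. The highest Pearson correlations of log2 CPM were between Slc35a1 and Npl (r = 0.87), Gne and Slc17a5 (r = 0.85) and Slc17a5 and Npl (r = 0.85). The lowest was between Nans and Neu3 (r = -0.68), and Neu1 was at -0.55 with Gne and -0.52 with Slc17a5. Over all tested genes, those most like Npl were Pld4, Clec4a2 and Asah1 (r = 0.97 each), and those most like Slc17a5 were Slc36a1, Rhob and Osbpl11 (r = 0.98 to 0.99). Neu1 was most like Ccdc126, Bsg and Blcap (r = 0.995 to 0.996), and Neu3 was most like the polysialyltransferase gene St8sia4 (r = 0.98), followed by Lcp1 and Maob. Gne was most like Stmn1, Ccna2 and Gcsam (r = 0.96), Nans like Chmp4c, Spp1 and Vrk2 (r = 0.97), Cmas like Diablo, Syt6 and Lbp (r = 0.90 to 0.91), and Slc35a1 like Ndufs1, C3ar1 and Tmco1 (r = 0.96 to 0.98). These are descriptions over 8 libraries that share depth and group, with the best matches picked from 12442 genes.

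Genes on either side of the pathway were described from lists. The supply of UDP-N-acetylglucosamine (9 genes, all tested) held no called gene in any comparison by edgeR, with 0 to 3 at an unadjusted p under 0.05 and 0 or 1 called by DESeq2 in a comparison. Of all 12442 genes, 327 to 4079 were at that p in a comparison, and DESeq2 called 27 to 2846. Gfpt1, which encodes the first enzyme of the hexosamine route, was at 94.9 ± 27.0 CPM in WT and 83.6 ± 3.75 in KO at steady state, and 111 ± 6.83 and 97.3 ± 0.940 with LPS. Of 7 genes for other sialidases and sialic acid modification, 5 were tested and 0 called by edgeR, with 0 or 1 at an unadjusted p under 0.05 and 0 or 1 called by DESeq2 in a comparison. Renbp, which encodes a renin-binding epimerase of amino sugars, was at 101 ± 22.6 CPM in WT and 92.1 ± 12.1 in KO at steady state. The sialidase genes Neu2 and Neu4 had 1 and 0 reads over all 8 libraries.

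Some of the sialyltransferase genes, whose enzymes use CMP-sialic acid, were called with LPS. Of 20 such genes 12 were tested. With LPS edgeR called 1 higher and 2 lower in WT, where 6.49% of all genes were called, and 1 higher and 3 lower in KO, where 11.8% were. DESeq2 called 4 in WT and 5 in KO, against 1995 and 2846 of all 12442 genes. St3gal1, which caps O-glycans, rose from 220 ± 44.4 to 570 ± 107 CPM in WT and from 174 ± 1.49 to 467 ± 38.2 in KO (edgeR adjusted p = 0.0343 and 0.0241). St6gal1, which caps N-glycans, fell in KO from 88.1 ± 23.7 to 14.8 ± 11.6 CPM (edgeR adjusted p = 0.0480), and was at 79.7 ± 16.3 and 15.9 ± 10.4 in WT, which DESeq2 called and edgeR did not (edgeR adjusted p = 0.0790). Its log2 difference was -2.56 ± 0.66 in KO and -2.31 ± 0.65 in WT. St6galnac2 fell in both genotypes, from 46 to 90 reads per steady-state library to 0 to 2 with LPS, and St8sia1 fell from 16 to 58 reads to 1 to 6. St8sia4 was at 190 and 262 CPM in WT and 201 and 214 in KO at steady state, and at 138 and 460.3 and at 287 and 134 with LPS, with no call in any comparison. Between genotypes edgeR called 0 sialyltransferases, with 0 at steady state and 1 with LPS at an unadjusted p under 0.05, and 0 and 1 by DESeq2. The counts over all 12442 genes were 327 and 2108 at that p, and 27 and 1062 by DESeq2.

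Of 14 genes for partners of Neu1 and other lysosomal glycan hydrolases, all tested, edgeR called 1 higher and 3 lower with LPS in WT (6.49% of all genes called), and 1 higher and 4 lower in KO (11.8%). DESeq2 called 5 in WT and 8 in KO, against 1995 and 2846 of all 12442 genes. Between genotypes edgeR called 0, with 3 at steady state and 5 with LPS at an unadjusted p under 0.05, and DESeq2 called 0 and 1. Over all 12442 genes the unadjusted counts were 327 and 2108, and DESeq2 called 27 and 1062. Man2b1, a lysosomal mannosidase, fell from 1114 ± 211 to 218 ± 19.2 CPM in WT and from 1822 ± 5.19 to 213 ± 20.6 in KO (edgeR adjusted p = 0.00823 and 0.00331). Gusb, the lysosomal glucuronidase, and Fuca1, a fucosidase, fell in both genotypes, and Manba, another mannosidase, fell in KO. The Manba difference was -1.23 ± 0.27 in KO and -1.09 ± 0.27 in WT, where DESeq2 called it and edgeR did not (edgeR adjusted p = 0.0558). Aga, which cleaves the sugar from asparagine, rose from 22.2 ± 0.187 to 48.6 ± 5.67 CPM in WT and from 20.3 ± 1.90 to 52.7 ± 5.82 in KO (edgeR adjusted p = 0.0315 and 0.0145). Of 10 other nucleotide sugar transporters of the SLC35 family, all tested, edgeR called 0 in each comparison, with at most 2 at an unadjusted p under 0.05 and 0 by DESeq2. By comparison, 327 to 4079 of all 12442 genes were at that p, and DESeq2 called 27 to 2846. Slc35b1 was at 115 and 39.7 CPM in WT and 54.9 and 121 in KO with LPS.

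Most calls on these lists were lost when single libraries were left out. Of the 8 such fits, Man2b1 was called in 7 in WT and 8 in KO. In WT, Gusb was called in 6, St6galnac2 in 4, St3gal1 and Aga in 3 each, and Fuca1 and St8sia1 in 1 each. In KO, Aga was called in 5, St8sia1 in 4, St6gal1 and Manba in 3 each, and St6galnac2, St3gal1, Fuca1 and Gusb in 2 each.

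The sequences before the start sites of the 2 called members are shown because Npl and Slc17a5 were lowest together in WT LPS cells. They are from RefSeq (GRCm38.p6), whose table held promoters of 7 of the 9 members, 8 promoters in all. The 250 bases before each start were searched on both strands for the E-box CACGTG, the core of the element read by the lysosomal regulator TFEB, and for the GATA letters: AGATAA, the form that ends in G instead (AGATAG), the form that starts with T instead (TGATAA), and the form with both changes (TGATAG). Capitals mark the matches, and both sequences are on the minus strand, 5′ to 3′. The Npl window is chr1:153549748-153549777 and lies within the longer first exon of the GENCODE model, and the Slc17a5 sequence is chr9:78588046-78588295.
Npl: cccgcgcggcccCACGTGgtcccgcagccc
Slc17a5: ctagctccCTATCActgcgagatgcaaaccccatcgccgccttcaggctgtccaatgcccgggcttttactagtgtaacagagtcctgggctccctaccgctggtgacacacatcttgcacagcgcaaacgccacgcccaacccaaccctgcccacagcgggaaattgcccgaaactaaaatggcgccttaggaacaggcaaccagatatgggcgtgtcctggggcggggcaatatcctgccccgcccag

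CACGTG stood 51 to 46 bases before the Npl start and in no other of the 8 member promoters, and in 6.02% of all 32851 promoters. The GATA letters stood in 2 of the 8, those of Slc17a5 (242 to 237 bases before the start, read on the other strand) and Neu3, and in 26.5% of all promoters. A match of letters is a description of the window and shows no binding.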

How the data were processed

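The authors deposited read counts per gene symbol, whole numbers that were not normalized, for 23420 genes in 8 libraries, 1 column each. Per the labels' protocols RNA came from an RNeasy-plus kit and libraries from a TruSeq kit that does not mark strand. Build mm10 and the tools edgeR 3.6.8, Subread 1.4.3, TopHat2 2.0.8 and featureCounts are listed, without roles, per the submitters' processing notes. Groups and replicate numbers came from the sample titles. The 2 libraries of a group were no copies of each other: a chi-square of their counts was 18.8 to 186 per gene.

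The counts went into edgeR 4.0.16 (R 4.3.3): filterByExpr (minimum count 10, minimum total 15), TMM factors, and the quasi-likelihood F test, two-sided, with 1 coefficient per group over all 8 libraries. All groups share 1 estimate of spread, with 4 residual degrees of freedom and a median of 3.40 prior ones. The SE was taken as the absolute difference over root F, and 95% intervals use those degrees of freedom. Log2 CPM for correlations added 0.5. Exon lengths and gene coordinates are from GENCODE M21 (GRCm38, the assembly of mm10). The procedure was also run on simulated counts, for KO against WT with LPS only. Those libraries were drawn independently, so the run cannot show how deviations shared between the real LPS libraries move the calls.

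Alternatives were upper-quartile or RLE factors, testing every gene, requiring 1 CPM or more in 2 libraries, DESeq2 1.42.0, only the groups compared, a replicate block and each library left out. Named genes are the 9 members and, of each list, every called gene and the one with the highest mean CPM over the 8 libraries (not per length), with St8sia4, Gata1 and the 3 tested genes most correlated with each member (symbols Gm with digits or Rik left out). The members and lists were chosen with earlier results of these data known. Marker lists also covered B cells (at most 29.97 summed CPM in a library), T and NK cells (at most 0.818) and eosinophils (0.678 to 198). Siglec5 alone made up most of the eosinophil sum at steady state, at 56.5 to 188 CPM. Each other eosinophil marker was at 7.17 CPM or less in every library, and Epx at 0.297 or less, so the sum does not stand for the list.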

Additional observations from a re-analysis of the deposited data

How the results depend on the processing

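Over 600 refits of a member's log2 difference (8 genes, 5 comparisons), 546 kept direction and side of the threshold, 23 lost a call, 7 gained one and 24 turned direction. All turned values belonged to uncalled differences. With no filter edgeR called 9 genes between genotypes at steady state, 538 with LPS, 1497 for LPS in WT, 2223 in KO (with 1 member, Neu1) and 3 for different responses. Fitted on the groups compared alone, the counts were 1 and 0 genes between genotypes (0 members with LPS), 229 genes and 0 members for LPS in WT, and 2316 genes and 1 member in KO. DESeq2 called 27 and 1062 genes between genotypes (2 members with LPS), 1995 for LPS in WT, 2846 in KO (1 member) and 113 for different responses. Neu3 for LPS in KO turned to 0.0072 with no filter, 0.012 on the KO groups alone and 0.059 under the replicate block.

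Equal replicate numbers did not pair the libraries. Their deviations correlated at -0.629 between the WT and KO LPS groups, and from -0.167 to 0.263 over the other pairs of groups. In the LPS groups, libraries of unequal number thus deviated alike, which a block by equal number does not match. Under the replicate block the counts were 8 genes and 0 members between genotypes with LPS, and 465 genes with 0 members in WT and 776 genes in KO for LPS. Crossing the numbers of the LPS groups, an alternative chosen after seeing the data, gave 273 genes and 1 member, Npl, between genotypes with LPS.

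Leaving out 1 library in turn gave 0 to 1 genes between genotypes at steady state. With LPS it gave 1 to 826 genes and 0 to 1 members. For LPS it gave 70 to 3629 genes and 0 to 3 members in WT, and 143 to 3345 genes and 0 to 1 members in KO. Log2 differences that turned were, between genotypes at steady state, Gne (-0.018 to 0.14) and Neu3 (-0.11 to 0.41), and with LPS, Nans (-0.49 to 0.38) and Neu3 (-1.24 to 0.65). For LPS they were Slc35a1 (-0.43 to 0.056) and Neu3 (-0.52 to 1.21) in WT, and Npl (-0.36 to 0.18) and Neu3 (-0.76 to 0.44) in KO. For the difference in response they were Gne (-0.074 to 0.14), Nans (-0.21 to 0.67), Neu1 (-0.053 to 1.22) and Neu3 (-1.38 to 0.52). The cause was not tested, except that a fit with fewer libraries has fewer residual degrees of freedom. Neu3 had the fewest reads of the tested members, and Nanp was not tested.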
